A study of Mus musculus with 6 samples.

Results

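Forkhead transcription factors were followed in ras-expressing mouse keratinocytes in which the interleukin-1 (IL-1) receptor was blocked with Anakinra. Members were all array genes whose name begins with Fox followed by one letter and a number. This rule gave 38 of 27573 gene names, measured by 54 different probes. Of these, 23 had a probe that the scanner software called well above background in every culture of 1 treatment or of both, and these were tested. A further 14 are listed below as silent or patchily detected.

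The cultures were epidermal keratinocytes taken fresh from newborn wild type mice. Hair follicle buds were isolated with them. Both groups were given the v-ras-Ha oncogene by an adenovirus at 10 particles per cell, so every culture carries oncogenic ras. Anakinra is a recombinant antagonist that occupies the IL-1 receptor. It was added to 3 cultures at 5 ug/ml, 5 hours after transduction, and replaced after 2 days. The other 3 cultures received PBS. RNA was taken after 3 days and measured on 1 one-colour Agilent array per culture. No untransduced culture was analysed here, so the effect of ras itself is not measured. Nothing in the labels says whether replicates came from separate animals. The p-values set each difference between groups against the spread among these cultures, and that spread may be technical. The comparison asks which genes in ras keratinocytes depend on IL-1 signalling.

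Forkhead proteins bind DNA through a winged-helix domain, and many recognise sites with a GTAAACA core. Subfamilies differ in what they control. FoxO proteins are held out of the nucleus by AKT when growth factors are present, and they drive stress and cell cycle arrest genes. FoxM1 drives genes of mitosis. Foxn1 promotes keratinocyte differentiation and hair formation. Foxc1 and Foxc2 are close relatives that act in mesenchyme, vessels and eye, and in mouse hair follicle stem cells Foxc1 helps to keep cells quiescent. Foxc2 is needed for lymphatic valves and can promote epithelial-mesenchymal transition in epithelial tumour cells.

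Foxc2 fell under Anakinra, and it was the only one of the 23 tested members that passed the test. Its normalised signal, in which the 75th percentile of each array is set to 1000, was 225, 214 and 219.7 in Anakinra cultures 1, 2 and 3. In PBS cultures 1, 2 and 3 it was 671, 705 and 623. The groups were far apart and each was tight, with means of 219 ± 5.30 in Anakinra and 666 ± 41.0 in PBS (SD, n = 3 each). The log2 difference, Anakinra minus PBS, was -1.60 ± 0.07 (SE, limma adjusted p = 0.00232, 95% interval -1.78 to -1.42), or 3.03-fold lower. Among 16495 genes tested it ranked 12 by p-value, and 25 by size among the 132 genes that fell.

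No member rose. Of all tested genes 0.8% fell and 0.97% rose at an adjusted p under 0.05, 1.77% in either direction, and with 1 gene called among 23 nothing is read about the family. Foxc2 was also the 1 member that differed by at least 1 on the log2 scale, as 1.78% of all genes did. At an unadjusted p under 0.05 there were 2 members, Foxc2 and Foxq1, both lower in Anakinra, where 16.1% of all genes had such a p. The median log2 difference of the tested members was -0.03, against 0.01 over all genes, and the median size regardless of sign was 0.15 in both. Across all genes 160 rose and 132 fell. When arrays were scaled by their medians these counts were 8 and 49, and the median of all genes moved to -0.32.

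The array design places the Foxc2 probe on chromosome 8 of mouse build mm8, at chr8:124004770-124004829. The probe was well above background on all 6 arrays. The arrays lay on 2 slides, with Anakinra 1, PBS 2 and PBS 3 on slide 1 and Anakinra 2, Anakinra 3 and PBS 1 on slide 2. Foxc2 differed by -1.56 within slide 1 and by -1.63 within slide 2. Fitting the slide as a block gave -1.60 (adjusted p = 0.0233). The call was lost without PBS 2, where the change was -1.56 (adjusted p = 0.0550). It was also lost with the replicate number as a block, at -1.60 (limma adjusted p = 0.138).

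**Figure D1:**
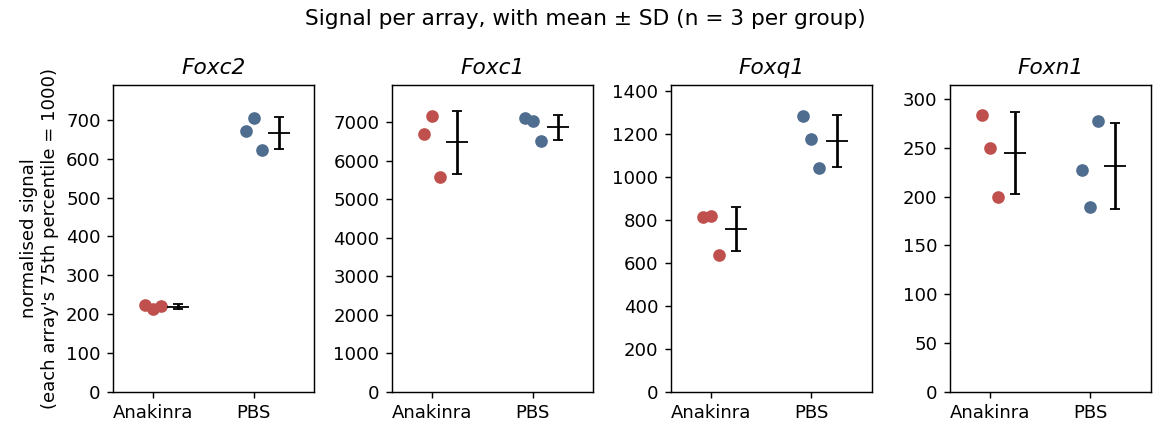
Normalised signal (75th percentile of each array set to 1000) of Foxc2, Foxc1, Foxq1 and Foxn1 on each array, Anakinra left of PBS, with the mean and SD of 3 arrays beside the points. Foxc2 lies between 214 and 225 in Anakinra and between 623 and 705 in PBS, while the groups overlap for Foxc1 and Foxn1.

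Foxc1, the closest relative of Foxc2, did not pass. Its signal was 6709.8, 7163 and 5579.9 in Anakinra cultures, against 7106, 7029 and 6507 in PBS cultures, and the groups overlapped. The difference was -0.09 ± 0.11 (adjusted p = 0.761, 95% interval -0.38 to 0.19). The change in Foxc2 minus that in Foxc1 was -1.51 on the log2 scale, and all 3 Anakinra arrays lay below all 3 PBS arrays in this difference. An exact permutation test over samples gave p = 0.1 (two-sided), the smallest that 3 against 3 arrays allow. Foxc2 was the called member in the same data and Foxc1 changed little, so this contrast is only a description.

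Foxq1, which is required for normal hair shaft structure in mice, came next. It was 813, 816 and 638 in Anakinra cultures, against 1284, 1176 and 1041 in PBS cultures. The groups did not overlap, but the fall did not pass the test at -0.63 ± 0.14 (adjusted p = 0.112). It was -0.44 within slide 1 and -0.83 within slide 2. The change in Foxc2 minus that in Foxq1 was -0.97 (exact permutation p = 0.1, two-sided, again the smallest possible). Foxq1 was the member of next smallest p in the same data, so this contrast is only a description. Besides Foxc2 and Foxq1, only Foxj2 had groups that did not overlap, giving 3 of 23 members where 26.2% of all tested genes had such groups.

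Some forkhead genes lie in clusters, and no tested neighbour of Foxc2 or Foxc1 passed the test. In the RefSeq table of assembly GRCm38.p6 the protein-coding neighbours of Foxc2 on chromosome 8 are Foxf1 and Mthfsd on one side and Foxl1 on the other. Mthfsd was above background on all 6 arrays and differed by -0.03 ± 0.08 (adjusted p = 0.925). Foxf1, named Foxf1a on the array and a factor of gut and lung mesenchyme, was above background on 1 Anakinra array and on no PBS array. Foxl1, a factor of the mesenchyme under the gut epithelium, was above background on 1 array of each group. On chromosome 13, where Foxq1, Foxf2 and Foxc1 follow each other, Foxf2 was at -0.03 ± 0.20 (adjusted p = 0.970) and was above background on 2 of 3 Anakinra arrays and all PBS arrays. The gene beyond Foxc1, Gmds, was at -0.15 ± 0.12 (adjusted p = 0.612).

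No FoxO factor passed the test. Foxo1 had a signal of 1549, 1664 and 1453 in Anakinra cultures, against 1696, 1560.1 and 1512 in PBS cultures. These ranges overlapped, and the difference was -0.03 ± 0.08 (adjusted p = 0.915, 95% interval -0.24 to 0.18). Its second probe differed by 0.08. Foxo3, named Foxo3a on the array, was 60.8, 78.9 and 51.3 in Anakinra and between 51.4 and 53.3 in PBS, at 0.25 ± 0.17 (adjusted p = 0.534). Foxo6 was at 0.04 ± 0.19 (adjusted p = 0.966).

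Foxm1 had a signal of 1364, 1400 and 1336 in Anakinra cultures, against 1535, 1326 and 1494 in PBS cultures. The lowest value of all was a PBS array, and the difference was -0.09 ± 0.08 (adjusted p = 0.670, 95% interval -0.28 to 0.11).

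Among the FoxN genes, Foxn1 was 283, 249.8 and 199.8 in Anakinra cultures, against 227, 189.7 and 278 in PBS cultures. Both groups covered nearly the same range, at 0.08 ± 0.20 (adjusted p = 0.904, 95% interval -0.41 to 0.57). Foxn2 was at 0.19 ± 0.18 (adjusted p = 0.670), with its other passing probe at 0.38. Foxn4, a factor of retinal and spinal progenitors, was at 0.50 ± 0.97, and a single Anakinra array had it above background.

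FoxP repressors and the broadly expressed FoxJ and FoxK factors were also without a call. Foxp1, which limits stem cell activation in mouse hair follicles, was 2067, 2008 and 2131 in Anakinra cultures, against 2468, 2146 and 2098 in PBS cultures, at -0.11 ± 0.09 (adjusted p = 0.601). Its 3 passing probes ran from -0.19 to 0.61, the last from a probe with a signal of 47.0 or less on every array. The 2 passing probes of Foxp4 disagreed in sign, at 0.17 and -0.51. Foxj2 was at 0.20 ± 0.11 (adjusted p = 0.442), with all 3 Anakinra arrays above all PBS arrays, and Foxj3 was at -0.15 ± 0.08 (adjusted p = 0.466). The 2 passing probes of Foxj3 also disagreed in sign, at -0.15 and 0.11. Foxk1 was at 0.15 ± 0.27 and Foxk2 at 0.04 ± 0.14. The 3 passing probes of Foxk1 ran from -0.13 to 0.15, and the 4 passing probes of Foxk2 from -0.10 to 0.30.

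Foxh1, a partner of SMAD proteins in early embryos, had a signal of 4574, 2938 and 3027 in Anakinra cultures, against 2957, 3588 and 3874 in PBS cultures. Anakinra 1 was the highest array and Anakinra 2 the lowest, and the groups overlapped, at -0.01 ± 0.21 (adjusted p = 0.996). Signals on different probes cannot be ranked as levels, and whether this probe measures only Foxh1 was not tested.

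**Figure D2:**
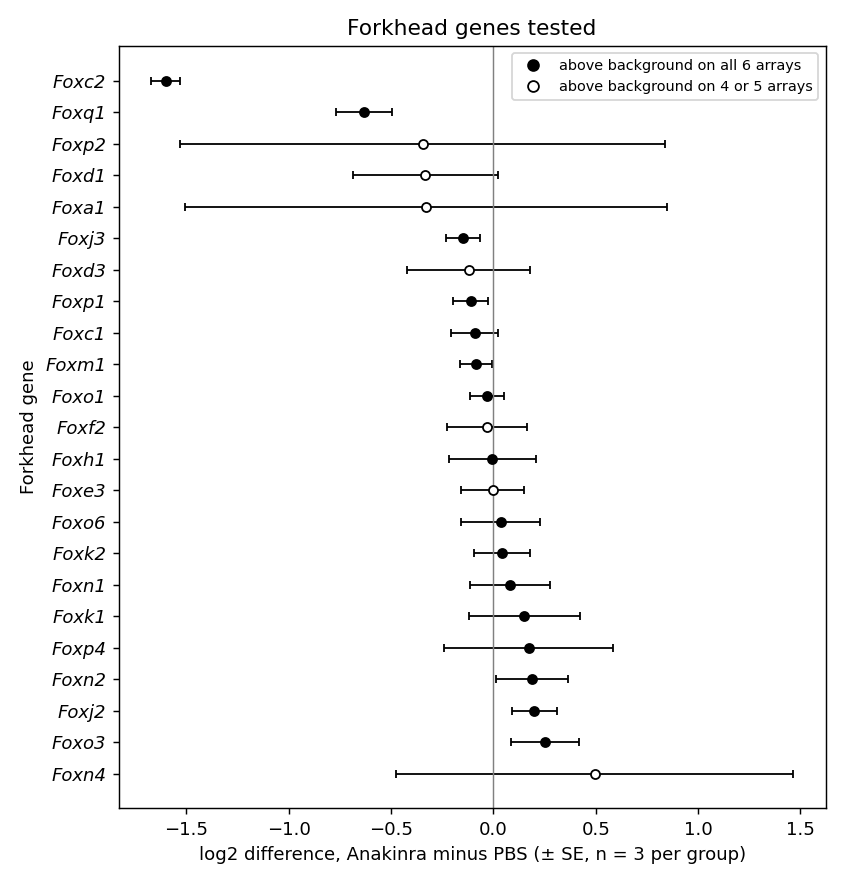
Log2 difference, Anakinra minus PBS, with its SE (n = 3 per group) for the 23 tested forkhead genes, sorted from lowest to highest. Foxc2 stands at -1.60 and Foxq1 at -0.63, and the other genes above background on all 6 arrays (filled) lie between -0.15 and 0.25.

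How far the data limit a change differed by member. For 17 of the 22 members without a call, the 95% interval of the log2 difference lay within 1 in either direction, so a doubling or halving lay outside it. For 14 of the 15 members above background on all 6 arrays this was so, the exception being Foxp4, with an interval from -0.87 to 1.21. All these intervals reflect only the spread among arrays under 1 scaling. Foxd3, Foxe3 and Foxf2, which are among the 17, were not above background on Anakinra 3. The dim Foxo3, also among the 17, changed sign under quantile scaling, from 0.25 to -0.22. The widest intervals were those of Foxp2, from -3.34 to 2.64, and Foxa1, from -3.30 to 2.64. Both were above background on 1 of 3 Anakinra arrays.

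Of the tested members 16 were above background on all 6 arrays and 7 were not. These 7, Foxa1, Foxd1, Foxd3, Foxe3, Foxf2, Foxn4 and Foxp2, entered the test through the PBS arrays. Foxd3, a neural crest factor that is switched off as melanocytes form, was 44.7, 65.5 and 31.5 in Anakinra cultures, against 58.4, 40.2 and 50.6 in PBS cultures, at -0.12 ± 0.30 (adjusted p = 0.907). Foxd1, a factor of kidney stroma, was at -0.33 ± 0.35, and Foxe3, a lens factor, at 0.00 ± 0.15.

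Detection of dim genes depended on the array. Between 55.6% and 86.5% of spots were well above background on the Anakinra arrays, with Anakinra 2 at 86.5%, against 62.3% to 70.9% on PBS arrays. The correlation between arrays was 0.957 to 0.983 within Anakinra and 0.995 to 0.997 within PBS. All 23 tested members were above background on Anakinra 2, against 19 on Anakinra 1 and 16 on Anakinra 3. Foxc2, which is bright enough to be detected everywhere, was at -1.58 without Anakinra 2 (adjusted p = 0.00963).

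Foxa3, Foxb1, Foxi1 and Foxi2 were silent on all 6 arrays. A further 10 were above background on some arrays but on no complete group: Foxa2, Foxb2, Foxd2, Foxd4, Foxe1, Foxf1, Foxj1, Foxl1, Foxl2 and Foxp3. Each of these 10 was above background on Anakinra 2, and 7 of them on no other array. Foxe1, a thyroid and hair follicle factor, and Foxa2, a factor of liver and lung, were among the 7. Foxj1, the factor for motile cilia, and Foxp3, that of regulatory T cells, were also above background on 2 PBS arrays. Values below background give only an upper bound, so no change is given for these genes.

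**Figure D3:**
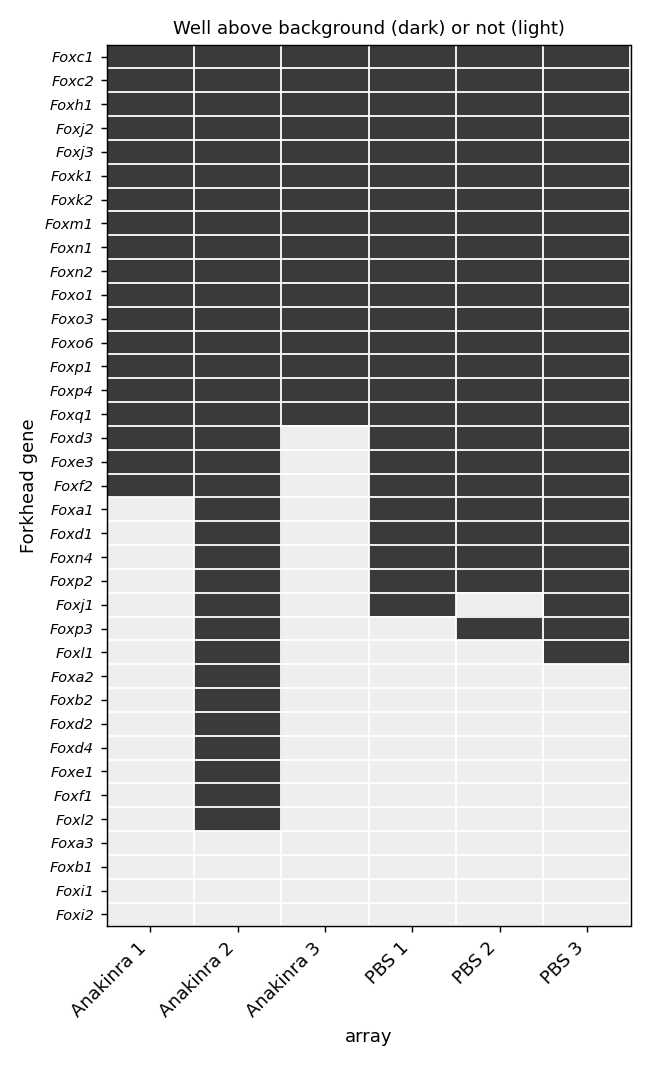
Detection of 37 forkhead genes on the 6 arrays, with dark cells for a probe well above background and light cells for one that was not (the tested probe, or the probe detected on most arrays). The 16 genes at the top are dark throughout, 4 at the bottom are light throughout, and the column of Anakinra 2 holds 7 genes that are dark nowhere else.

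Genes around the forkhead factors were taken from lists drawn up for each subfamily. Their counts, and those of the cell type markers after them, are read against all tested genes, of which 0.97% rose, 0.8% fell, 16.1% had an unadjusted p under 0.05 and 26.2% had groups that did not overlap. Of 9 genes that lie downstream of Foxc1 or Foxc2 in other tissues, such as vessels, 6 were tested and 0 passed, also at an unadjusted p under 0.05, with a median of 0.07. Those with the smallest p were Bmp2, a growth factor of the BMP family, at 0.42 ± 0.37, and the connexin gene Gja4 at 0.32 ± 0.35. Both were highest on Anakinra 2. Cxcr4, at -0.04 ± 0.72, and Bmp6, at 0.055 ± 0.423, entered through PBS, being above background on 1 and 2 Anakinra arrays. With errors of this size the missing calls do not show that these genes were unchanged. Of 9 tested genes of epithelial-mesenchymal transition 0 passed in limma, 4 being higher and 1 lower at an unadjusted p under 0.05. The median was 0.27. Twist2, a mesenchymal transcription factor, was 695, 882 and 658 in Anakinra cultures, against 1393, 1175 and 1269.7 in PBS cultures, at -0.79 ± 0.14 (adjusted p = 0.0712). Vim, the intermediate filament of mesenchymal cells, was at 0.70 ± 0.13 (adjusted p = 0.0760). These 2 differences had opposite signs, and in neither did the groups overlap. Of the 9 differences 8 were positive, and Twist2 was the 1 negative. The list mixes mesenchymal and epithelial genes, and the epithelial cadherin Cdh1, at 0.205 ± 0.077, was among the 4 higher.

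Of 14 regulators of FoxO proteins, all tested, 0 passed, and 2 were higher at an unadjusted p under 0.05, with a median of 0.05. Sgk1, a kinase that phosphorylates FoxO3, was at 0.27 ± 0.08 (adjusted p = 0.214), and Akt2 at 0.20 ± 0.07 (adjusted p = 0.240). Among 17 tested FoxO target genes the median was 0.05, 1 gene fell, none of the 17 rose, and 16 did not pass. At an unadjusted p under 0.05 there were 3 higher and 4 lower, among them the mitophagy gene Bnip3 at 0.39 ± 0.07 (adjusted p = 0.0677) and the stress gene Gadd45a at -0.66 ± 0.11 (adjusted p = 0.0624). The gene that fell was Fbxo32, a ubiquitin ligase subunit induced by FoxO in wasting muscle, with a signal of 1181, 1215 and 1265 in Anakinra cultures, against 1623, 1681 and 1684 in PBS cultures. Its change was -0.45 ± 0.06 (adjusted p = 0.0391), and the call was lost when slide was a block (adjusted p = 0.134).

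The FoxM1 target list, all 20 tested, had no member that passed. At an unadjusted p under 0.05 there were 6 lower and 0 higher, and the median was -0.14. The mitotic kinase Aurkb was at -0.34 ± 0.07 (adjusted p = 0.105) and the CDK subunit gene Cks1b at -0.26 ± 0.07 (adjusted p = 0.188). Over all genes the median was 0.01.

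**Figure D4:**
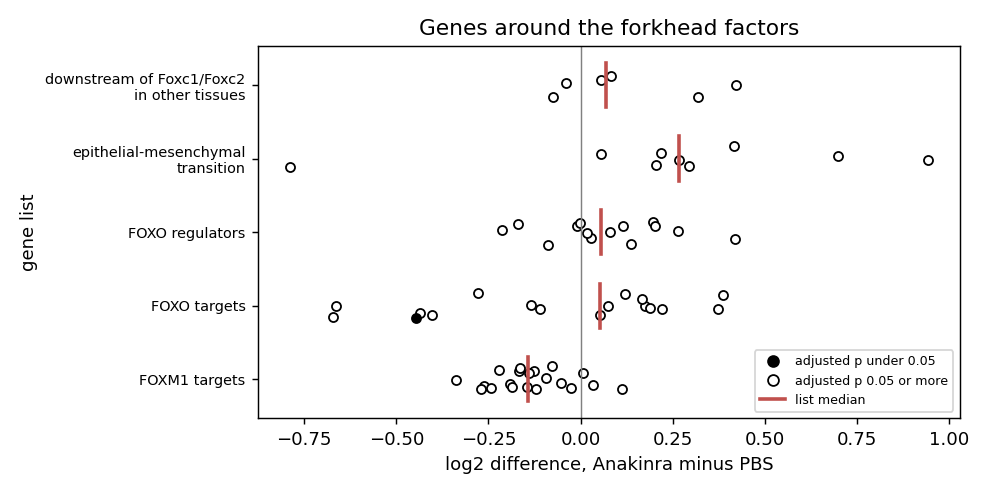
Log2 difference, Anakinra minus PBS, of each tested gene in 5 lists around the forkhead factors, with the list median as a bar. Fbxo32 among the FoxO targets, at -0.45, is the only filled point, and the medians run from -0.14 for FoxM1 targets to 0.27 for epithelial-mesenchymal transition genes.

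Because the samples are bulk RNA, fewer cells of a type and less RNA per cell cannot be told apart. All 12 keratinocyte markers were above background on all 6 arrays, with Krt5 at -0.14 ± 0.08 and Krt14 at -0.04 ± 0.08. Of the 12 differences 7 were positive and 5 negative, and 5 were higher and 0 lower at an unadjusted p under 0.05. The summed signal of the 12 was 1412611 to 1591686 in Anakinra and 1464265 to 1631084 in PBS. The differentiation keratins Krt1 and Krt10 rose at 2.35 ± 0.19 and 2.40 ± 0.26, but when slide was a block the adjusted p was 0.0599 for Krt1 and 0.0939 for Krt10. Markers of other cells in the skin were measured as well. All 13 fibroblast markers were tested, and 2 rose, Lum at 1.43 ± 0.15 and Col3a1 at 0.95 ± 0.13, while 0 fell. Under that block the adjusted p was 0.0555 for Lum and 0.143 for Col3a1. Col1a1 was at 0.23 ± 0.14. Of the 13 differences 11 were positive and 2 negative, with a median of 0.305. The 2 negative ones were Dcn at -0.38 ± 0.07 (adjusted p = 0.0703) and Twist2, which belongs to this list too. The summed signal of the 13 was 14325 to 16803 in Anakinra and 11786 to 14573 in PBS.

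Of 7 endothelial markers 4 were tested and 0 passed, with Egfl7 at -0.26 ± 0.08 and Pecam1 at 0.12 ± 0.23. Kdr and Cldn5 were above background on all 3 PBS arrays and on 1 Anakinra array, so they entered through PBS. The summed signal of the 4 was 1618 to 1965 in Anakinra, against 2022 to 2143 in PBS. Most of this sum came from the Egfl7 probe, at 1450 to 1651 in Anakinra and 1795 to 1946 in PBS. The other 3, Cdh5, Emcn and Tek, were above background on no PBS array, and on Anakinra arrays Cdh5 and Emcn were on 2 and Tek on 1. Melanocyte markers were all 9 tested with 0 passing, with Kit at 0.41 ± 0.09, Ednrb at 0.52 ± 0.12 and Dct at 0.18 ± 0.09. All 9 differences were positive, with a median of 0.22, and 3 were higher at an unadjusted p under 0.05. Their summed signal was 105803 to 114526 in Anakinra and 91523 to 110041 in PBS. Of 9 tested hair follicle markers 2 rose, Krt79 at 0.86 ± 0.06 and Dlx3 at 0.96 ± 0.14, and under the slide block Dlx3 did not pass (adjusted p = 0.159). Of the 9, 4 differences were positive and 5 negative, with Cd34 at -1.07 ± 0.24 (adjusted p = 0.119). Their summed signal, nearly all from the Krt17 probe, was 432787 to 456864 in Anakinra and 420994 to 507655 in PBS. Of 8 immune markers on the array 4 were tested and 0 passed, with Cd14 at -0.30 ± 0.06 and Csf1r at -0.33 ± 0.11. Of the 4 differences 1 was positive and 3 negative, with Cd68 at -0.003 ± 0.181. The positive one, Cd207 at 0.15 ± 1.37, was above background on 2 Anakinra arrays and all 3 PBS arrays, so it entered through PBS. The leukocyte marker Ptprc was above background on 1 array of each group. The summed signal of the 4 tested immune markers was 2301 to 2772 in Anakinra and 2424 to 2869 in PBS. Most of this sum came from the Cd68 probe, at 1456 to 2107 in Anakinra and 1623 to 2094 in PBS. What part these cells have in the fall of Foxc2 was not tested.

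Promoter letters were searched in 250 bases before the start of each gene, from RefSeq (GRCm38.p6), on both strands. The table held 29 promoters of 24 members, 15 of them tested. The Foxc2 promoter was not among those searched. The NF-kB letters GGGANTTCC, which 1.43% of all 32851 promoters hold, were in 0 of the 24 members. The longer form with a further T, which 0.356% hold, was also in 0. The forkhead letters GTAAACA, held by 3.17% of promoters, were in 1, that of Foxa1. The stretch is shown because it is a forkhead core in the promoter of a forkhead gene, with the match in capitals, on the minus strand of chromosome 12 at chr12:57546231-57546267, at position -141 from the gene start.
Foxa1: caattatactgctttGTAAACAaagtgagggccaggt
Foxa1 itself, a factor of gland and gut epithelia, was 8.82, 124 and 8.91 in Anakinra cultures, against 17.6, 20.9 and 52.6 in PBS cultures. Anakinra 2 was the highest array and the other Anakinra arrays were not above background.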

How the data were processed

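The members and gene lists were chosen with earlier results of these data known. One untested member is not reported here. Per the file headers, the authors scanned each array in 1 channel with Agilent Feature Extraction 9.5.3.1. Its deposited processed intensity is corrected for background and spatial trends array by array, has a surrogate value at very dim spots, and is not scaled across arrays. The authors' deposited table of log2 values matches that intensity plus a constant per array, to within 0.0005, with column medians of 5.74, 7.00 and 6.21 in Anakinra and 5.77, 5.83 and 6.22 in PBS. No label or header gives the origin of these constants.

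Here log2 intensity minus the 75th percentile of each array was used, without control and outlier spots. Spots of a probe were averaged. A probe entered if well above background on all arrays of 1 group, with at least 2 values per group, and the brightest passing probe stood for a gene. Names were updated through RefSeq. Anakinra was compared with PBS by limma 3.58.1 in R 4.3.3 (two-sided, Benjamini-Hochberg over 16495 genes). The fit was tested on simulated data. Alternatives covered background, scaling, filter, probes, slide, replicate block, array weights, the authors' table and each array left out. Every member and the chromosome neighbours of Foxc2 and Foxc1 could be named, and from each list up to 4 called genes, or the 2 of smallest p, plus Krt5, Krt14, Col1a1, Dct, Ptprc and Pecam1. Cdh1, Cdh5, Emcn, Tek, Cldn5, Cd34, Cd68, Cd207, Krt17, Dcn, Gadd45a, Bnip3, Cxcr4 and Bmp6 lie outside this rule and were chosen after their values were seen. Precision is limited by having 3 arrays per group. No spot was saturated.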

Additional observations from a re-analysis of the deposited data

How the results depend on the processing

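Foxc2 was lower in Anakinra under all 17 alternatives, at -1.93 to -1.39, and passed the threshold in 15. With array medians as the scale it was -1.93, while the median of all genes was -0.32. No other member passed under any alternative, and the number of members that rose was 0 in each. With 1 array left out Foxc2 ran from -1.65 to -1.56, and the number of members that fell was 0 to 1, being 0 without PBS 2. Same-numbered arrays deviated with correlations of 0.408, -0.493 and -0.212, and differently numbered ones with correlations from -0.671 to 0.703. With so few arrays these correlations cannot decide whether the replicate numbers pair the samples. No label says what the numbers mean. With the replicate block Foxc2 was -1.60 (adjusted p = 0.138), so 0 members fell, and limma called 0 of all genes, 1768 having an unadjusted p under 0.05. A normexp correction with the slide as a block, chosen after seeing the data, gave -1.39. Of all genes 292 were called, against 57 with array medians, 36 with no filter on dim probes, 578 when all 6 arrays had to be above background, 53 with the slide as a block and 8 to 234 with 1 array left out. Dim members are limited by signal over background.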

Other observations

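The signal of Foxp3 stood out on a single array, Anakinra 2. It was 13.7, 478 and 8.64 in Anakinra cultures 1, 2 and 3, against 11.0, 19.8 and 28.1 in PBS cultures. Foxj1 had 138 on Anakinra 2, against 5.02 and 16.5 on the other Anakinra arrays and 16.3 to 34.4 on PBS arrays. Neither gene was above background on Anakinra 1 or Anakinra 3. Anakinra 2 had 86.5% of spots well above background, and all 10 patchily detected members were above background on it.

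Forkhead genes that the array carries under older names lie outside the rule that chose the members. Foxn3, named Ches1 there, was at 0.12 ± 0.12 (adjusted p = 0.688). Another Foxn3 probe, above background on all 6 arrays, differed by 0.59, with overlapping groups, and the remaining one had signals of 989 to 1280.3 in Anakinra, against 1124 and 988 in PBS 1 and PBS 2 and no usable value in PBS 3. Foxs1, named Fkhl18, was at 0.09 ± 0.39 (adjusted p = 0.957). Foxo4, named Mllt7, was above background on 2 arrays of each group and was not tested.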
